A study of Homo sapiens with 24 samples.

Results

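Genes for the liver X receptors (LXRs) and for sterol handling that they are known to drive were examined in RT112 cells. This human bladder cancer line is known to carry an FGFR3-TACC3 gene fusion. The genes were the targets ABCG1, ABCA1 and MYLIP and the receptor genes NR1H2 and NR1H3. Their probe sets were those that the platform annotation gives to these symbols. Of these 5 genes, 4 had annotated probe sets, 15 in all, among 19775 genes and 54675 probe sets. NR1H2 was not analysed here. Where a gene had several probe sets, the one brightest on average over the 24 arrays stood for it.

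There were 4 transduced lines, each with a hairpin RNA switched on by doxycycline. It was directed at FGFR3 in the lines 2-4, 4-1 and 6-16, and at EGFP, a gene that human cells lack, in the control line. Every line had 3 Affymetrix arrays labelled plusDox, from cells given 1 µg/ml doxycycline for 48 h, and 3 labelled noDox, from cells given none, all in medium with 1% serum. All 8 groups therefore shared the RT112 background and a hairpin construct. Whether a line was a clone or a pool, and whether replicates were separate cultures, was not stated in the labels, so p-values measure only the spread between these arrays, which may be technical.

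LXRs are nuclear receptors that bind oxysterols, which accumulate when cells hold excess cholesterol, and act on DNA together with a retinoid X receptor. NR1H3 encodes LXR alpha. Their targets include ABCA1 and ABCG1, membrane transporters that pass cholesterol to lipoprotein particles, and MYLIP, a ubiquitin ligase that sends lipoprotein receptors for degradation. SREBP factors do the opposite work when sterol is scarce and switch on synthesis genes such as SQLE, which oxidises squalene on the way to sterols, and SCD, which desaturates fatty acids and is also an LXR target.

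The deposited values were log2 expression after RMA, and all levels below are on that scale. TACC3 and FGFR3 did not follow the labels. FGFR3 lay at 11.28 to 12.34 on the plusDox arrays of the 3 FGFR3 lines, against 11.36 to 12.27 on their noDox arrays. TACC3 ranged from 10.49 to 12.62, with a free interval between 11.43 and 11.82, and 9 arrays lay below and 15 above the threshold of 11.6 used to describe the members. Of those 9, 4 were labelled plusDox and 5 noDox, and 3 carried the EGFP label. In 7 of the 8 labelled groups arrays lay on both sides. Directions by label below rest on labels that the hairpin's target, as read by the probe set used, did not bear out. Whether that probe set reads the fusion transcript was not tested. The sides of the TACC3 threshold were set by a measured value and are not groups of the study. Levels on them are therefore given as ranges, in places with a median, and with no mean and no test.

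ABCG1 varied more than nearly all genes. Its range over the 24 arrays was 3.45 log2 units, wider than that of 99.8% of genes, against a median range of 0.49. In the 2-4 line it had 6.55, 7.68 and 7.38 with doxycycline and 6.52, 9.64 and 6.33 without (replicates 1, 2 and 3). In the 4-1 line it had 7.90, 9.73 and 6.46 with doxycycline and 9.54, 7.64 and 7.45 without. In the 6-16 line it had 6.66, 9.55 and 7.13 with doxycycline and 6.54, 9.78 and 6.54 without. In the EGFP line it had 6.66, 6.33 and 7.57 with doxycycline and 7.69, 9.47 and 7.39 without. The values fell into 2 sets, 6 arrays at 9.47 to 9.78 and 18 at 6.33 to 7.90, separated by a gap of 1.57. Each of the 6 high arrays came from a different labelled group, 2 with and 4 without doxycycline by label, and every one was the highest of its group.

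MYLIP stood highest on the same 6 arrays. In the 2-4 line it had 9.35, 9.94 and 9.43 with doxycycline and 9.53, 10.85 and 9.04 without. In the 4-1 line it had 9.91, 10.22 and 9.38 with doxycycline and 10.69, 9.74 and 9.45 without. In the 6-16 line it had 9.41, 10.80 and 9.27 with doxycycline and 9.24, 10.23 and 9.15 without. In the EGFP line it had 9.25, 9.43 and 9.76 with doxycycline and 9.86, 10.15 and 9.89 without. The 6 arrays of the high ABCG1 set held MYLIP at 10.15 to 10.85, and the other 18 held it at 9.04 to 9.94. Of the 3 members that did not define the set, MYLIP alone lay higher there without overlap, as did 2.14% of all genes.

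NR1H3, the receptor, had a range of 0.61 over the 24 arrays, wider than that of 69.6% of genes and far narrower than those of ABCG1 and MYLIP. It had 8.59, 8.16 and 8.52 with doxycycline and 8.45, 8.47 and 8.65 without in the 2-4 line. It had 8.36, 8.31 and 8.39 with doxycycline and 8.44, 8.18 and 8.37 without in the 4-1 line. Its values in the 6-16 line were 8.46, 8.33 and 8.31 with doxycycline and 8.71, 8.32 and 8.62 without, and in the EGFP line 8.55, 8.43 and 8.15 with doxycycline and 8.21, 8.38 and 8.11 without. On the high ABCG1 arrays it lay at 8.31 to 8.47, within its range of 8.11 to 8.71 on the others.

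ABCA1 was flat. It lay between 5.70 and 6.15 on all 24 arrays, a range of 0.45 that was below the median range of all genes, and under the array's median value on 24 of 24 arrays. Detection calls were not used here, so whether its signal lay above background was not tested. Levels of different probe sets are not comparable. On the high ABCG1 arrays ABCA1 lay at 5.70 to 5.98, and on the others at 5.71 to 6.15.

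**Figure D1:**
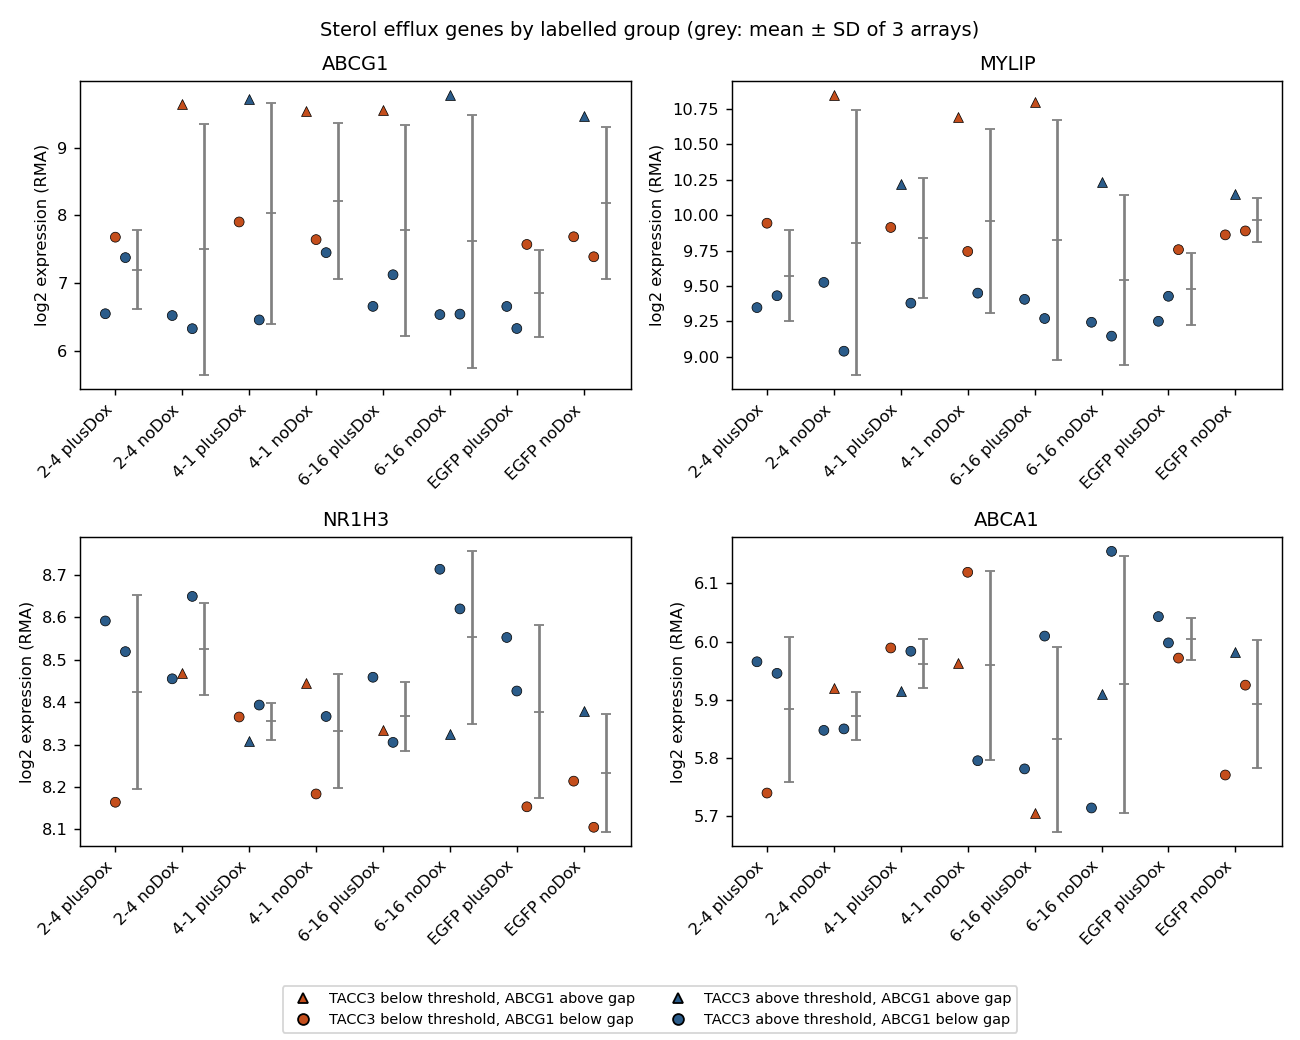
Log2 expression (vertical axis) of ABCG1, MYLIP, NR1H3 and ABCA1 on each array, by labelled group (horizontal axis); triangles are the 6 arrays with ABCG1 at 9.47 or above, colours mark the side of the TACC3 threshold, and grey bars give the mean ± SD of 3 arrays. The triangles are the highest arrays of their groups for ABCG1 and MYLIP, while NR1H3 and ABCA1 show no such set (each panel has its own scale).

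The promoter windows of ABCA1 and MYLIP are shown because LXRs bind a direct repeat of the half-site AGGTCA with a spacer of 4 bases (DR4) and because MYLIP varied across the arrays and ABCA1 did not. Both windows run from 250 bases before to 50 after the annotated start, in the direction of the gene, from RefSeq on GRCh38.p14. ABCA1 lies at chr9:104928106-104928405 on the minus strand and MYLIP at chr6:16128836-16129135 on the plus strand. Capitals mark the DR4 match.
ABCA1: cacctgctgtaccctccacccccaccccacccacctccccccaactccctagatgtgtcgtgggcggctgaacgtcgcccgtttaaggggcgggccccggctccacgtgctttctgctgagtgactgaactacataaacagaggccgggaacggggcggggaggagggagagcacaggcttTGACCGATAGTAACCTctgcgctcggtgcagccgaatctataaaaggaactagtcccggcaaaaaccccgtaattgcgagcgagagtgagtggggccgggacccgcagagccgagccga
MYLIP: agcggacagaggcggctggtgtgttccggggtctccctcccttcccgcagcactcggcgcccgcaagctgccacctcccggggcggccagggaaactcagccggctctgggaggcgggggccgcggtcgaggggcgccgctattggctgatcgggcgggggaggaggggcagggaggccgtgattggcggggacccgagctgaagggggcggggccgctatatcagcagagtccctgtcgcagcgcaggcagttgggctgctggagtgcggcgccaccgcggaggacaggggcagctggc
The motif searched was AGGTCA, any 4 bases and AGGTCA again, on both strands, with up to 1 mismatch in each half-site. The ABCA1 window held 1 match, AGGTTACTATCGGTCA on the strand opposite to the gene, from 69 to 54 bases before the start. The MYLIP window held 0 matches, as did the 4 windows of NR1H3 and the window of SCD. No window of ABCG1 or SQLE was searched. Of 35116 windows of the same length, 1.38% held a match. A match is a run of letters, and whether it is bound was not measured here. Its absence from this window says nothing of sites elsewhere.

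The other probe sets of ABCG1 gave the same array sets. All 4 had the 6 arrays above the other 18. The 3 that were not used lay at 7.60 to 7.99 against 6.68 to 7.15, at 6.46 to 7.03 against 5.44 to 6.06, and at 5.77 to 6.59 against 4.85 to 5.41. Their ranges over the 24 arrays were 1.30, 1.60 and 1.74, narrower than the 3.45 of the one used. Of the 6 MYLIP probe sets 4 had all 6 arrays above the other 18. On another the sets met, at 9.14 to 9.89 on the 6 arrays and 8.57 to 9.15 on the others, and the last was flat over all arrays at 7.05 to 7.34. None of the 4 ABCA1 probe sets separated these arrays. Their ranges ran from 0.44 to 0.54, and over the 24 arrays the other 3 had Pearson correlations of -0.32 to 0.19 with the one used, against 0.88 to 0.96 for ABCG1, given as a description of probe sets read on the same arrays.

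**Figure D2:**
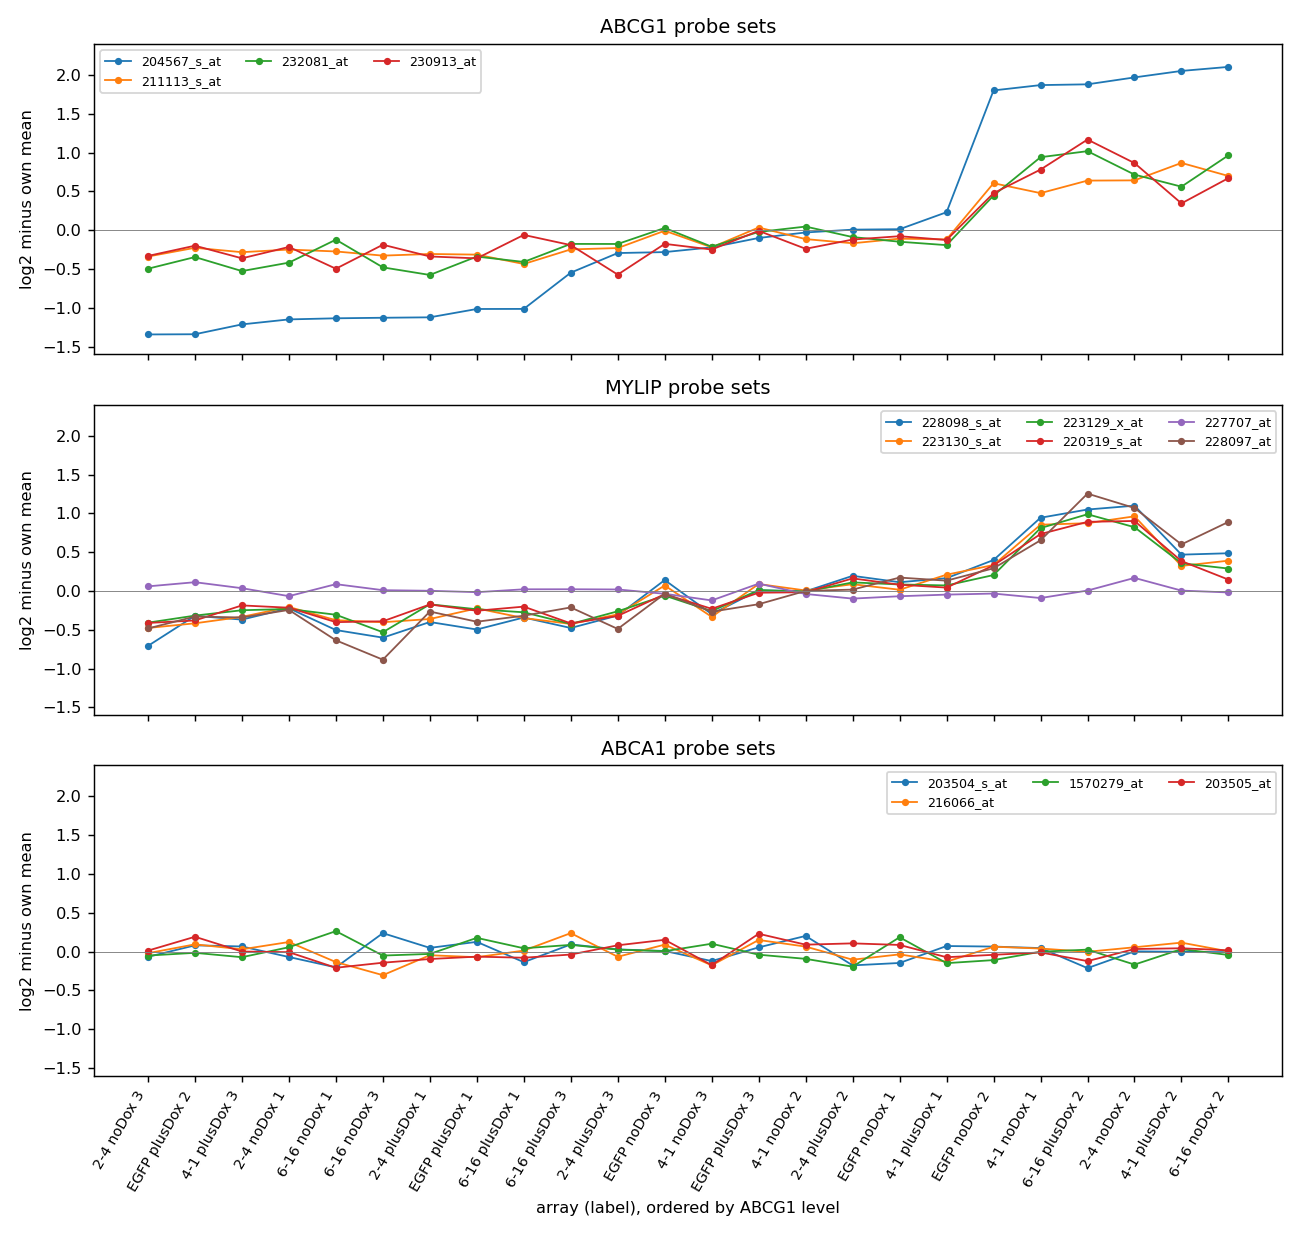
Each probe set's log2 expression minus its own mean over the 24 arrays (vertical axis), for ABCG1, MYLIP and ABCA1, with arrays ordered by ABCG1 level (horizontal axis). All 4 ABCG1 probe sets step up at the same 6 arrays, 4 of 6 MYLIP probe sets do so without overlap, 1 is flat, and the 4 ABCA1 probe sets stay within a range of 0.54.

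The labels set doxycycline against none in each line, with the EGFP hairpin as the control. None of the 4 members passed limma by label. ABCG1 averaged 7.20 ± 0.59 with doxycycline and 7.50 ± 1.86 without in the 2-4 line (SD, n = 3 each, as below), 8.03 ± 1.64 and 8.21 ± 1.16 in the 4-1 line, and 7.78 ± 1.55 and 7.62 ± 1.87 in the 6-16 line. With the EGFP hairpin it averaged 6.85 ± 0.64 with doxycycline and 8.18 ± 1.13 without. The log2 changes were -0.30, -0.18 and 0.16 in the 3 FGFR3 lines and -1.33 with the EGFP hairpin, each with a standard error (SE) of 1.04. By limma the adjusted p was 0.999, 1.00, 0.977 and 0.975. The SD of ABCG1 within labelled groups, 1.39, exceeded its SD over all 24 arrays, 1.24.

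Single arrays set the sign of the ABCG1 changes in the 3 FGFR3 lines, and not with the EGFP hairpin. The 2-4 value became 0.78 with replicate 2 of its noDox arrays left out and 0.031 with replicate 1 of its plusDox arrays left out. The 4-1 value became 0.60 with plusDox replicate 3 left out and 0.48 with noDox replicate 1 left out. The 6-16 value became -0.73 with plusDox replicate 2 left out and -0.38 with noDox replicate 1 or 3 left out. The EGFP value stayed negative with each of its 6 arrays left out, from -1.73 to -0.68, the last of these without noDox replicate 2.

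For MYLIP the changes were -0.23, -0.13 and 0.28 in the 2-4, 4-1 and 6-16 lines and -0.49 in the EGFP line, each with an SE of 0.44. By limma the adjusted p was 0.999, 1.00, 0.888 and 0.975. With the EGFP hairpin it averaged 9.48 ± 0.26 with doxycycline and 9.97 ± 0.16 without. These arrays did not overlap, at 9.25 to 9.76 with doxycycline and 9.86 to 10.15 without, as was the case in that direction for 4.53% of genes, with 6.08% higher. No other member separated in any line. Genes that did so made up 3.35% higher and 4.08% lower in the 2-4 line, 0.986% and 2.80% in the 4-1 line, and 9.10% and 5.17% in the 6-16 line. The MYLIP value turned to 0.29 in the 2-4 line with noDox replicate 2 left out. It turned to 0.24 and 0.10 in the 4-1 line with noDox replicate 1 or plusDox replicate 3 left out, and to -0.20 in the 6-16 line with plusDox replicate 2 left out.

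NR1H3 had changes of -0.099, 0.024 and -0.19 in the FGFR3 lines and 0.14 in the EGFP line (SE 0.12), and ABCA1 had 0.011, 0.0033 and -0.095 in the FGFR3 lines and 0.11 in the EGFP line (SE 0.10). The smallest limma adjusted p among these was 0.741. The NR1H3 value turned to 0.031 in the 2-4 line with plusDox replicate 2 left out and to -0.050 in the 4-1 line with noDox replicate 2 left out. In the 6-16 line it was -0.30 with noDox replicate 2 and -0.11 with noDox replicate 1 left out, and with the EGFP hairpin it was 0.26 with plusDox replicate 3 and 0.057 with plusDox replicate 1 left out. The EGFP value of ABCA1 was 0.051 with noDox replicate 1 left out. The ABCA1 values turned sign in the 2-4, 4-1 and 6-16 lines when single arrays were left out. The 95% intervals of the ABCA1 changes ran from -0.31 to 0.33 over the 4 lines, and those of ABCG1 from -3.50 to 2.33.

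In the mean FGFR3 line change minus the EGFP line change, ABCG1 had 1.22 ± 1.20 (SE), MYLIP 0.46 ± 0.51, NR1H3 -0.23 ± 0.14 and ABCA1 -0.14 ± 0.12, all at a limma adjusted p of 1.00. This contrast holds the EGFP change with opposite sign, so the values are not separate from those above. The ABCG1 value was 0.58 with EGFP noDox replicate 2 left out. Limma passed 0 of the 4 members in each of the 5 comparisons, where it called 0.00% of all genes. At an unadjusted p under 0.05 it held 2.46%, 1.13%, 7.78% and 2.55% of genes in the 2-4, 4-1, 6-16 and EGFP lines and 2.16% in the contrast, and no member. In the 6-16 line 1 gene was called with the replicate number as a block and 1291 with array weights, neither count including a member.

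**Figure D3:**
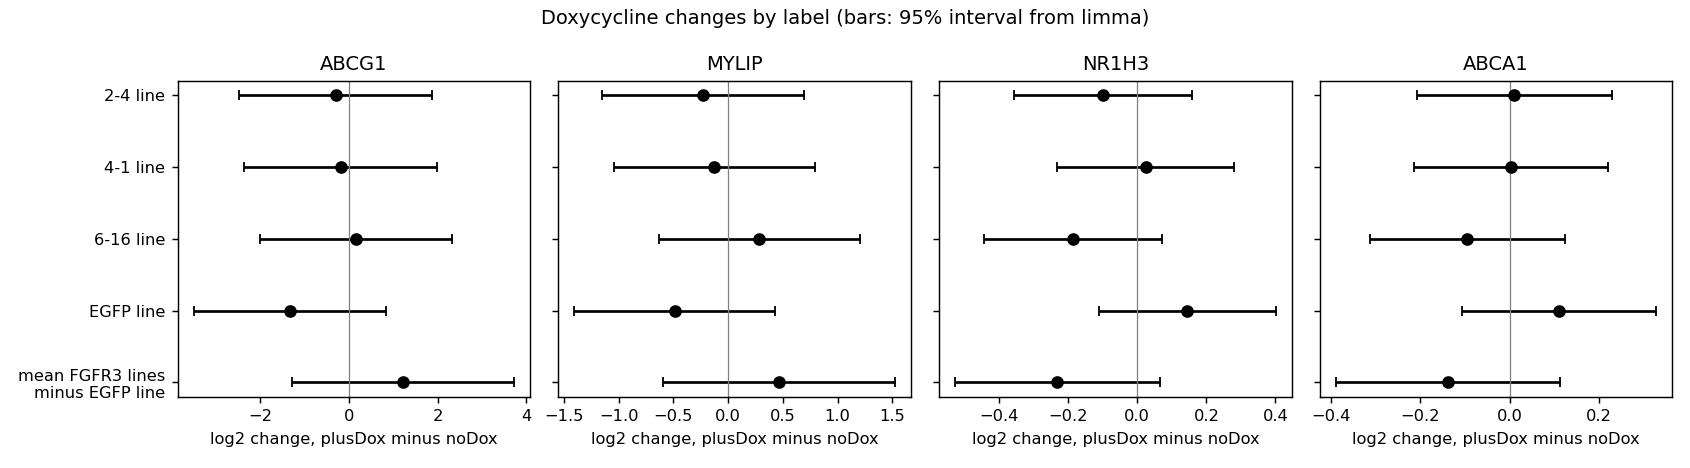
Log2 change with doxycycline (horizontal axis) for each member in the 2-4, 4-1, 6-16 and EGFP lines and for the mean FGFR3 line change minus the EGFP line change; points are estimates and bars 95% intervals from limma. All intervals cross 0, and those of ABCG1 are the widest, from -3.50 to 0.84 in the EGFP line (each panel has its own scale).

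Set beside TACC3, the members differed from each other. MYLIP lay at 9.74 to 10.85 on the 9 arrays with TACC3 below 11.6, against 9.04 to 10.23 on the 15 above it. These ranges overlapped only through the high ABCG1 arrays. Among those 6, MYLIP was 10.69 to 10.85 on the 3 arrays with TACC3 below the threshold, against 10.15 to 10.23 on the 3 above it. Among the other 18 it was 9.74 to 9.94 on the 6 arrays below, against 9.04 to 9.53 on the 12 above. Of all genes 21.8% were higher in this way and 14.2% lower among the 6 arrays, and 5.80% and 8.03% among the 18. In both sets at once 5.19% were higher, MYLIP among them, and 5.26% lower.

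ABCG1 did not show that order among its high arrays. It was 9.54 to 9.64 on the 3 high arrays with TACC3 below the threshold, against 9.47 to 9.78 on the 3 above it. Among the other 18 it was 7.39 to 7.90 on the arrays below, with a median of 7.66, against 6.33 to 7.45 with a median of 6.55 on those above, which overlapped at replicate 3 of the 4-1 noDox arrays (7.45). Over all 24 arrays the ranges were 7.39 to 9.64 and 6.33 to 9.78.

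NR1H3 lay at 8.11 to 8.47 on the arrays with TACC3 below the threshold, against 8.31 to 8.71 on those above it, with overlap. Outside the high ABCG1 set these ranges were 8.11 to 8.36 and 8.31 to 8.71, and within it 8.33 to 8.47 and 8.31 to 8.38. ABCA1 lay at 5.70 to 6.12 below and 5.71 to 6.15 above. The lipid synthesis genes separated fully, SQLE at 10.97 to 11.51 below against 12.45 to 12.94 above, and SCD at 10.69 to 11.58 against 12.47 to 13.09. Of all genes 3.09% were lower in this way and 2.90% higher, and 0 of the 4 members were among either.

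**Figure D4:**
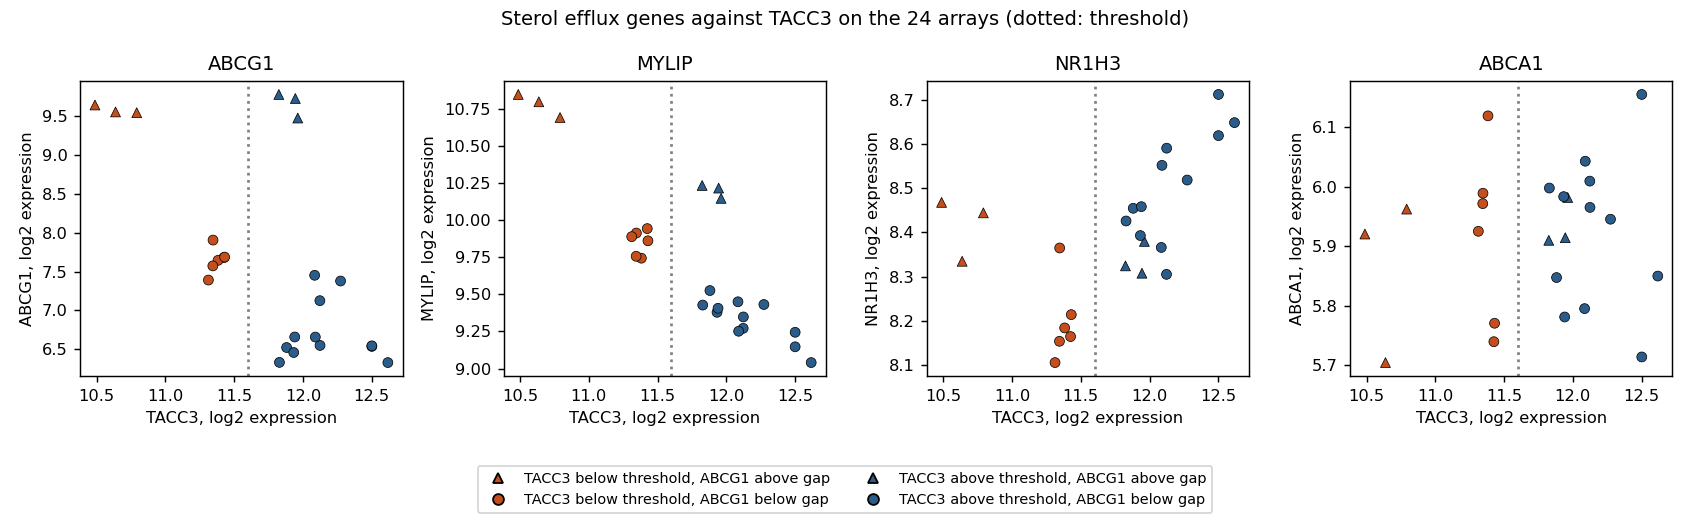
Log2 expression of each member (vertical axes) against TACC3 (horizontal axis) on the 24 arrays, with the threshold of 11.6 dotted; triangles are the 6 arrays with ABCG1 at 9.47 or above. MYLIP is higher left of the line within the triangles and within the circles, ABCG1 is level among the triangles, and ABCA1 shows no order.

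The members were then related to SQLE and SCD on the same arrays. Because SQLE and SCD split at the TACC3 threshold, no value was pooled over it, and 16 relations were computed, 4 members with each gene on each side. Arrays also form sets within a side, so the permutation p-values, which take arrays as independent, are too small to the extent that like arrays are not. Adjusted p-values are Benjamini-Hochberg over the 16, from two-sided tests, exact for 9 arrays and with 100000 resamples for 15. By Pearson's r, 11 of 16 passed an adjusted p of 0.05, 5 below the threshold and 6 above it. By Spearman's rho 6 of 16 passed, 1 below (MYLIP with SCD) and 5 above. By Pearson's r, 8 of the 11 no longer passed without the 2 arrays farthest from the SQLE or SCD median. Without the 6 high ABCG1 arrays, 7 kept their sign and no longer passed, and 3 of the 16 turned sign. The share of all genes that relate as closely to SQLE or SCD was not computed. These counts therefore cannot be called particular to the members.

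Above the TACC3 threshold, ABCG1 was lower where SCD was higher. Pearson's r was -0.98 and Spearman's rho -0.82 over 15 arrays, with permutation adjusted p of 0.00016 and 0.0014. Without the 6 high ABCG1 arrays, of which 3 were on this side, r was -0.76 over 12 arrays (permutation p 0.0033). Those 12 held a further set, replicate 3 of the 2-4 plusDox, 4-1 noDox and 6-16 plusDox arrays. It had ABCG1 at 7.38, 7.45 and 7.13 and SCD at 12.88, 12.94 and 12.94. The rest of the 12 had ABCG1 at 6.33 to 6.66 and SCD at 12.93 to 13.09. The permutation takes such like arrays as independent, and the relation within the rest was not tested. The 3 high arrays had SCD at 12.47 to 12.56, below the 12.88 to 13.09 of the other 12. With SQLE, ABCG1 had an r of -0.61 and a rho of -0.76. Its r was -0.71 without the high arrays, and -0.49 with each array centred on its median (permutation adjusted p 0.088), which did not pass.

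MYLIP gave a like relation to SCD above the threshold, with an r of -0.95, a rho of -0.83 and permutation adjusted p of 0.00021 and 0.0014. Without the 3 high arrays r was -0.58 (permutation p 0.051). With SQLE its r was -0.59 and its rho -0.59, with permutation adjusted p of 0.032 and 0.051, and median centring gave an r of -0.46 (permutation adjusted p 0.10).

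NR1H3 ran the other way above the threshold. It was higher where SQLE was higher, with an r of 0.87 and a rho of 0.88 (permutation adjusted p 0.00016 and 0.00064), and r was 0.84 over 12 arrays without the high set. Leaving out the 2 arrays farthest from the SQLE median gave 0.80. Replicate 3 of the 2-4 noDox and replicates 1 and 3 of the 6-16 noDox arrays were highest on this side for both genes. They had SQLE at 12.84, 12.94 and 12.94 and NR1H3 at 8.65, 8.71 and 8.62. The rest had SQLE at 12.45 to 12.71 and NR1H3 at 8.31 to 8.59. The permutation takes such like arrays as independent, and the relation within the rest was not tested. With SCD, NR1H3 had an r of 0.64 and a rho of 0.75. ABCA1 had an r of -0.049 with SQLE and -0.048 with SCD.

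Below the threshold the relations of ABCG1 rested on the 3 high ABCG1 arrays. ABCG1 had an r of 0.91 with SQLE and -0.83 with SCD over 9 arrays (exact permutation adjusted p 0.026 for both), with rho of 0.53 and -0.70. These 3 arrays had SQLE at 11.42 to 11.51, above the 10.97 to 11.18 of the other 6, and SCD at 10.69 to 10.90, below their 11.13 to 11.58. Without them r was -0.30 with SQLE and -0.081 with SCD over 6 arrays (exact permutation p 0.54 and 0.83). SQLE and SCD, which separate together at the threshold, differed in opposite directions between the 3 high arrays and the rest of their side.

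MYLIP below the threshold had an r of 0.88 with SQLE, which became -0.66 without those 3 arrays (exact permutation p 0.15, 6 arrays). Its r with SCD was -0.89 and stayed negative at -0.79 without them (exact permutation p 0.096, 6 arrays). NR1H3 had 0.65 with SQLE and -0.74 with SCD, and -0.53 and -0.19 without them. Its relation to SCD passed (exact permutation adjusted p 0.046), but no longer did in 8 of 9 cases with a single array left out. ABCA1 had -0.23 and 0.25, neither of which passed. With the mean of all probe sets of each gene, SCD included, the calls with SCD changed. The other ABCA1 probe sets in that mean had Pearson correlations of -0.32 to 0.19 with the one used. ABCA1 then had an r of 0.79 (exact permutation adjusted p 0.025, 9 arrays), and ABCG1, NR1H3 and MYLIP had -0.63, -0.65 and -0.72, which did not pass (exact permutation adjusted p 0.098, 0.094 and 0.053).

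**Figure D5:**
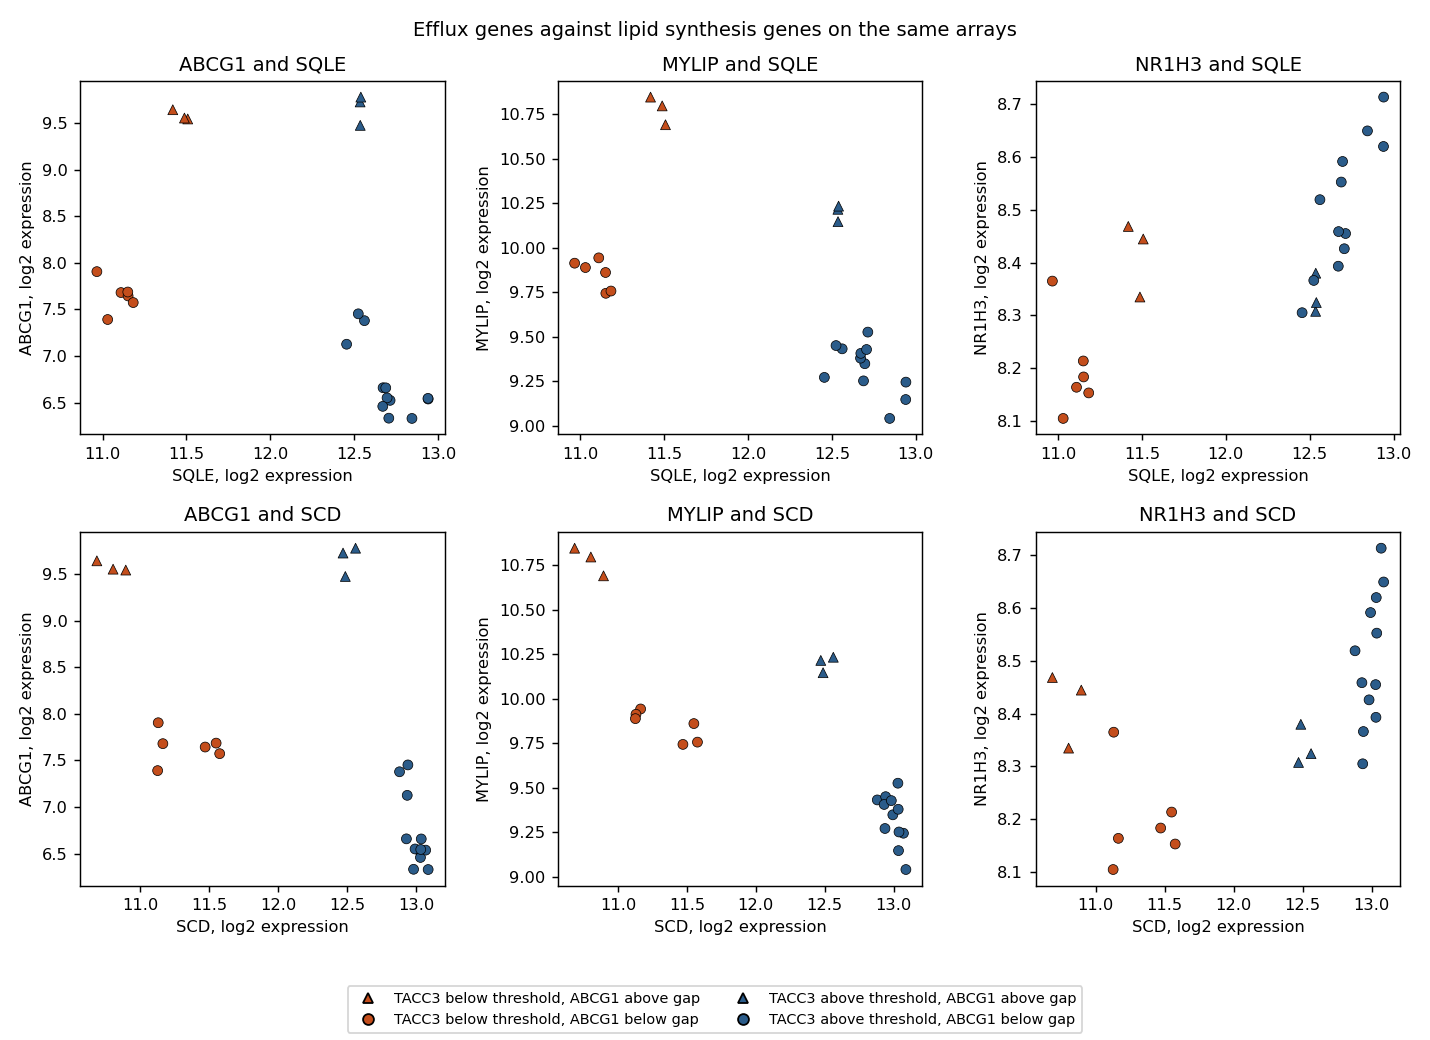
ABCG1, MYLIP and NR1H3 (vertical axes, log2 expression) against SQLE (upper row) and SCD (lower row) on the 24 arrays; triangles are the 6 arrays with ABCG1 at 9.47 or above and colours mark the side of the TACC3 threshold. The triangles carry SCD values of 10.69 to 10.90 and 12.47 to 12.56, each the lowest of its side, while their SQLE values are the highest of the side below the threshold.

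Other genes of the pathway were described from lists chosen with earlier results of these data known, and limma passed 0 of their measured genes in any of the 5 comparisons. Of the 11 measured other LXR targets, SMPDL3A, a phosphodiesterase, was the 1 gene higher without overlap on the arrays with TACC3 below the threshold, at 10.34 to 10.65 against 9.45 to 10.20, where 2.90% of all genes were higher in this way. SREBF1, the gene of the lipogenic factor SREBP1 and a known LXR target, ran opposite to MYLIP. On the high ABCG1 arrays it was 9.60 to 9.65 with TACC3 below the threshold against 10.37 to 10.47 above. On the others it was 10.43 to 10.70 against 11.09 to 11.34. Lower in both sets at once were 5.26% of all genes. TTC39B, which promotes LXR degradation in mice, had 6.53 to 7.44 below and 6.27 to 7.17 above.

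Among 5 measured partners and coregulators, NCOA1, a coactivator of nuclear receptors, was higher below the threshold at 9.65 to 10.06 against 9.36 to 9.61. Of all genes 2.90% were higher there without overlap. RXRA, a dimer partner of LXR, had 12.35 to 12.52 against 12.13 to 12.40, and NCOA6, another coactivator, 10.23 to 10.64 against 10.17 to 10.44. Of 6 measured oxysterol enzymes none separated by TACC3 side, where 2.90% of all genes were higher and 3.09% lower. SULT2B1, a sulfotransferase that inactivates oxysterols, had 6.87 to 7.89 against 6.26 to 7.03. Within the ABCG1 sets it had 7.60 to 7.89 against 6.92 to 7.03 on the high arrays. On the others it had 6.87 to 7.18 against 6.26 to 6.65. Higher in both sets at once were 5.19% of all genes.

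Of the receptors that MYLIP is known to mark for degradation, LRP8 was lower below the threshold, at 7.01 to 8.17 against 9.08 to 9.49, and VLDLR had 5.73 to 6.03 against 5.72 to 6.19. MYLIP acts on the proteins, which were not measured. Sterol synthesis and SREBP2 response genes were lower below the threshold without overlap in 9 of 10 measured, and fatty acid synthesis genes in 5 of 7, against 3.09% of all genes. INSIG1, which retains SREBP in the endoplasmic reticulum, had 10.02 to 10.51 against 11.10 to 11.99, HMGCS1, an early enzyme of sterol synthesis, 8.69 to 9.59 against 10.18 to 10.47, and FASN, fatty acid synthase, 10.37 to 10.69 against 11.39 to 12.39.

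In sterol trafficking, SOAT1, which esterifies cholesterol for storage, was higher below the threshold at 10.08 to 10.41 against 9.46 to 9.91. NPC1, the lysosomal cholesterol exporter, was lower there at 9.60 to 9.95 against 10.01 to 10.45. Without overlap, 2.90% of all genes were higher there and 3.09% lower. NCEH1, a cholesterol ester hydrolase, was 8.41 to 9.26 against 8.04 to 8.96. NPC2, the carrier that hands cholesterol to NPC1, was the 1 of 7 measured genes that separated the high ABCG1 arrays, at 12.09 to 12.26 against 12.59 to 12.89 on the other 18, and 2.39% of genes were lower in that way.

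By label, the 10 sterol synthesis and SREBP2 genes had median log2 changes of -0.083, 0.23 and -0.34 in the 2-4, 4-1 and 6-16 lines and of 0.51 with the EGFP hairpin, where all genes had medians of -0.0052, -0.0078, 0.028 and 0.023. The 11 other LXR targets had medians of -0.024, -0.012, -0.0028 and 0.0021 in the 2-4, 4-1, 6-16 and EGFP lines.

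Genes of most similar pattern were sought among those with a range over 1 log2 unit, by Pearson's r over the 24 arrays, as a description of arrays that form sets. Nearest to ABCG1 were KLF4, a transcription factor (0.96), TNFRSF1A, a TNF receptor (0.96), and RASEF (0.96), and most opposed were CENPV (-0.97), CA2, a carbonic anhydrase (-0.97), and B9D1, a protein of the ciliary base (-0.96). CENPV lay at 8.68 to 9.21 on the 6 high ABCG1 arrays against 10.35 to 11.14 on the others. CA2 lay at 6.24 to 6.77 against 7.95 to 9.22, and B9D1 at 8.35 to 8.59 against 10.45 to 11.28.

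Nearest to MYLIP were ASAH1, acid ceramidase (0.98), RNF128, a ubiquitin ligase (0.98), and LGALS3, galectin-3 (0.98), and most opposed were ADORA2B, an adenosine receptor (-0.98), SREBF1 (-0.97) and COL4A2, a basement membrane collagen (-0.96). For NR1H3 they were SRM, spermidine synthase (0.86), PDCD2L (0.85) and FOSL1, an AP-1 subunit (0.84), and on the other end EXPH5 (-0.87), RHOBTB3 (-0.85) and MTUS2 (-0.82). ABCA1 had no close match, the nearest being CHROMR (0.36), EIF5A, a translation factor (0.33), and EDDM3A (0.28), and the most opposed AGBL3 (-0.52), NLN (-0.49) and TAPT1-AS1 (-0.41).

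Some urothelial markers differed between the TACC3 sides. Of 8 measured, 3 were higher without overlap below the threshold, against 2.90% of all genes, and 0 lower, against 3.09%. The 3 were UPK1A, a uroplakin (12.08 to 12.97 against 10.01 to 11.36), GATA3, a luminal transcription factor (13.46 to 13.66 against 13.09 to 13.34), and CDH1, E-cadherin (12.76 to 13.07 against 12.46 to 12.65). UPK2 and KRT19 were higher below with overlap, with medians of 9.30 and 13.63 below and 8.68 and 13.53 above. KRT7, UPK3A and EPCAM ran the other way with overlap, with medians of 12.75, 7.17 and 12.87 below and 13.12, 7.25 and 12.94 above. The summed log2 level of the 8 ran from 93.91 to 96.84 below and from 91.06 to 93.88 above, and their part in the results was not tested. Of 9 measured macrophage and leukocyte markers 0 separated by TACC3 side or by ABCG1 set. Of all genes 2.90% were higher and 3.09% lower by side, and 2.14% and 2.39% on the high ABCG1 arrays. A count of 0 is near these shares. The summed log2 levels of the 9 were 56.3 to 58.5 below and 56.7 to 58.6 above.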

How the data were processed

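Total RNA of 24 samples was measured on Affymetrix arrays. The deposited values are log2 expression of 54675 probe sets, and per the submitters' processing notes RMA and affy were used, with no version stated. Labels and headers name no genome build. RMA quantile-normalizes arrays, which removes change shared by most genes. Array medians ran from 6.98 to 7.08, and 0 pairs of arrays were identical. Precision is limited by 3 arrays per group.

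Probe sets were named from the platform annotation: 41097 had 1 symbol, 1801 several and 11777 none; only the first were used. Entrez identifiers matched 41043 of them to RefSeq (GRCh38.p14), with 0 symbols changed. The probe set with the highest mean stood for each of 19775 genes.

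One limma model (3.58.1, R 4.3.3) held the 8 labelled groups (16 residual degrees of freedom), with Benjamini-Hochberg adjustment over all genes and a threshold of 0.05; intervals are 95%. Correlations used permutation tests in Python 3.11.15. Both were tested on simulated data. Deviations from group means of like-numbered arrays correlated above 0.1 for all numbers in the 2-4 and 6-16 lines and not in the others. Arrays of unlike number were not compared, and no label ties the numbers to a culture, so this is only a hint of pairing. Alternatives were median centring, the mean of a gene's probe sets, a filter on low values, array weights, the replicate number as a block, fits by line and each array left out. Members, lists and tests were chosen with earlier results of these data known; the array set above the ABCG1 gap was defined after its values were seen. Named genes were the members, SQLE, SCD, TACC3, FGFR3, the 3 widest-ranging of each list and the 3 nearest and 3 most opposed of each member. NPC2, GATA3, CDH1, KRT19, UPK3A and EPCAM were added after their values were seen. Some listed genes were not analysed here.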

Additional observations from a re-analysis of the deposited data

How the results depend on the processing

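Precision was limited by 3 arrays per labelled group, by like arrays spread over those groups, and by the lack of a background measure for ABCA1. Limma called 0 genes in each of the 5 comparisons. In the 6-16 line it called 1 with the replicate number as a block, 1 on the arrays of that line only and 1291 with array weights, none of them a member; the cause was not tested. Leaving out single arrays kept every one of the 5 counts at 0. Deviations of like-numbered arrays with and without doxycycline correlated above 0.1 in 9 of 12 pairs, all 3 in the 2-4 line (0.25 to 0.50) and all 3 in the 6-16 line (0.36 to 0.61). In the 4-1 line (-0.53 to 0.48) and with the EGFP hairpin (-0.27 to 0.44) not all pairs did so. Arrays of unlike number were not compared. Beyond the 1 gene in the 6-16 line, the block changed no call.

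With array weights the doxycycline change of ABCG1 became 0.28 in the 2-4 line and -0.21 in the 6-16 line, that of SCD -0.27 in the 2-4 line and that of ABCA1 -0.013 in the 4-1 line. With the mean of all probe sets ABCA1 had -0.027, -0.0025 and 0.040 in the 2-4, 4-1 and 6-16 lines, and SCD -0.042 in the 2-4 line. The cause was not tested.

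With single arrays left out, changes in the 2-4 line ranged from -0.88 to 0.78 for ABCG1, -0.030 to 0.083 for ABCA1, -0.18 to 0.031 for NR1H3, -0.61 to 0.29 for MYLIP, -0.66 to 0.30 for SQLE and -0.71 to 0.67 for SCD. In the 4-1 line they ranged from -1.03 to 0.60 for ABCG1, -0.079 to 0.083 for ABCA1, -0.050 to 0.080 for NR1H3 and -0.38 to 0.24 for MYLIP. In the 6-16 line they ranged from -0.73 to 1.24 for ABCG1, -0.20 to 0.020 for ABCA1, -0.20 to 0.63 for MYLIP and -1.02 to 0.045 for SCD.

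Some correlations below the TACC3 threshold changed with the mean of all probe sets of each gene, SCD included. It gave -0.63 for ABCG1, -0.65 for NR1H3 and -0.72 for MYLIP with SCD, none passing. For ABCA1 with SCD it gave 0.79 (exact permutation adjusted p 0.025), which passed. Above it, median centring gave -0.49 for ABCG1, 0.057 for ABCA1 and -0.46 for MYLIP with SQLE. Without the 2 arrays farthest from the median, fewer arrays gave 0.80 and -0.77 for ABCG1 with SQLE and SCD, -0.57 for NR1H3 with SCD, and 0.76 and -0.84 for MYLIP with SQLE and SCD below the threshold. Above it they gave -0.66 for ABCG1 and -0.54 for MYLIP with SQLE, and 0.022 for ABCA1 and 0.59 for NR1H3 with SCD.

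Without the 6 high ABCG1 arrays, an alternative chosen after seeing the data, r below the threshold was -0.30 and -0.081 for ABCG1, -0.53 and -0.19 for NR1H3, and -0.66 and -0.79 for MYLIP with SQLE and SCD. Above it r was -0.71 for ABCG1 and -0.55 for MYLIP with SQLE, and 0.59 for NR1H3 and -0.58 for MYLIP with SCD.

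With single arrays left out, r below the threshold ranged from -0.38 to 0.063 for ABCA1, 0.53 to 0.92 for NR1H3 and 0.84 to 0.92 for MYLIP with SQLE, and from -0.85 to -0.62 for NR1H3 with SCD. Above it r ranged from -0.68 to -0.58 for ABCG1, -0.46 to 0.28 for ABCA1 and -0.72 to -0.54 for MYLIP with SQLE. With SCD on that side r ranged from -0.18 to 0.081 for ABCA1 and from 0.57 to 0.70 for NR1H3. Below the threshold, NR1H3 with SCD no longer passed in 8 of 9 such cases.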

Other observations

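The remaining wide-ranging genes of the lists were set beside the TACC3 threshold of 11.6. ACSS2, which makes acetyl-CoA from acetate for lipid synthesis, lay at 9.51 to 9.78 on the 9 arrays with TACC3 below it, against 10.06 to 10.82 on the 15 above. The oxysterol hydroxylase CYP39A1 had a median of 7.32 below and 7.16 above, with overlapping ranges, and CYP46A1, a cholesterol hydroxylase known from brain, 6.11 to 6.49 below and 6.29 to 6.57 above. UPK2, a uroplakin, had 9.03 to 10.17 below and 8.37 to 9.52 above, and KRT7, a keratin of simple and transitional epithelia, 12.65 to 13.37 below and 12.82 to 13.34 above. On the 6 high ABCG1 arrays KRT7 lay at 13.25 to 13.37, against 12.65 to 13.34 on the other 18. The leukocyte markers CD14, TYROBP and FCER1G overlapped between the sides, with CD14 at 5.25 to 5.60 below and 5.34 to 5.87 above.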
